A study of Homo sapiens with 4 samples.

Results

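DNA replication and G1/S genes were followed on 4 Illumina bead arrays of human lung cancer cells with and without knockdown of TET1, a dioxygenase that oxidises methylated cytosine in DNA. The members were 37 genes chosen by symbol, and every probe of the deposited table that carries one of these symbols was taken. Under their own symbols 34 of the 37 genes had 52 probes. ORC1, ORC6 and CDC45 stand in the table under the older symbols ORC1L, ORC6L and CDC45L, and further probes of POLA1 and RRM2 under POLA and C2orf48, which RefSeq now lists as synonyms, so that all 37 genes had 58 probes among 47321 probes and 30908 genes in all. The 4 arrays were cRNA of A549 cells given vehicle, of A549 cells given siRNA against TET1, of H1299 cells given vehicle and of H1299 cells given the same kind of siRNA, 1 array each. A549 cells come from a lung adenocarcinoma and H1299 cells from a lymph node metastasis of a non-small cell lung cancer, and the labels give the source of both as lung bronchial epithelium. No time after transfection and no non-targeting siRNA is given in the labels. With 1 array per group, no difference within a line has a measured error. The comparison of knockdown with control asks which transcripts differ once TET1 is knocked down, and the lines are set against each other as well.

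Before a cell enters S phase, the origin recognition complex, CDC6 and CDT1 load the MCM helicase onto DNA, and GMNN holds CDT1 back outside G1. Cyclins of the D and E types release E2F transcription factors from the RB family, and E2F then raises many of the genes that make DNA, among them many of those described here. CDC45 and the GINS complex turn the loaded MCM ring into a working helicase, and polymerases with the PCNA clamp copy the strands from nucleotides that RRM1, RRM2, TYMS and TK1 help to supply. In cell lines, RNA of these genes follows both the share of cells in S phase and the RNA per cell, and in bulk samples these cannot be told apart.

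Neither H1299 array lay nearest to the other array of its line. Among the 47321 probes, 13980 were detected in the A549 control and 14417 in the H1299 knockdown, against 17107 in the knockdown of A549 and 16883 in the control of H1299, detection being an array detection p-value under 0.01. Of the 58 member probes, 38 and 48 were detected in A549, control first, and 49 and 39 in H1299. Over 11894 probes detected on all arrays, the normalized signal of the H1299 knockdown correlated at 0.90 with the A549 control and at 0.877 with the H1299 control. The H1299 control in turn correlated at 0.891 with the A549 knockdown, also above 0.877. The A549 arrays correlated at 0.932 with each other, the highest of the 6 pairs (Pearson, across probes, which are not replicates). Epithelial genes differed between the lines: EPCAM and CDH1 were detected on both A549 arrays and neither H1299 array. KRT8 was detected on all 4 arrays and KRT18 on none. Averaged over controls and knockdowns, H1299 minus A549 was -3.26 log2 units for the epithelial gene KRT19. It was 0.67 and -1.30 for the mesenchymal or fibroblast genes VIM and COL1A1, and -3.19 for the blood cell gene CD14. Of 7 airway and alveolar markers, TP63 was detected on both A549 arrays, and the other 6, such as NKX2-1 and SCGB1A1, on no array. TET1 itself had a raw signal of 222.1 in the A549 control and 164.5 in its knockdown, and of 255.9 and 186.8 in H1299. It was detected in the controls alone, at least 3.06-fold lower with knockdown in A549 and at least 1.72-fold lower with knockdown in H1299. On the deposited values the log2 differences of TET1 were -0.28 and -0.11, so the size of the knockdown rests on the processing of this dim probe. Each comparison within a line holds 1 of the 2 arrays with fewer detected probes, as control in A549 and as knockdown in H1299, and the part of this in the results was not tested.

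A promoter motif of E2F was present in 18 members. Many members are genes that E2F raises, so this share is not independent of how they were chosen. Promoter windows of RefSeq (GRCh38.p14, 250 bases before to 50 after a start) were at hand for 33 of the 37 genes, in 44 windows. The E2F motif was searched on both strands as TTTGGCGC, TTTCCCGC, TTTGCCGC or TTTCGCGC. At least 1 window of 18 of the 33 genes held it (54.5%), against 3.99% of 27305 genes and, by window, 40.9% of the members' windows against 3.32% of all 35116. Of 24 mitosis genes with a window, 3 held it (12.5%). The CCAAT box, searched on both strands as CCAAT, was in windows of 21 of the 33 members (63.6%), against 39.7% of all genes and 83.3% of the mitosis genes. CpG, the dinucleotide whose methylated form TET1 acts on, occurred a median of 30 times in a member window (3 to 47) and 14 times in all windows (0 to 77). Each E2F motif searched holds CpG, and the windows of all genes were not matched to those of the members for it. In MCM6, TTTGGCGC at positions -152 and -90 from the start each overlapped TTTCGCGC on the other strand, and in MCM2 TTTCGCGC on both strands overlapped just after the start. The 200 bases before the first listed start are shown for the 6 members that differed most in either line among those detected on all arrays with a window, so that the letters can be set beside the array values given later. Capitals mark E2F motifs and CCAAT boxes of either strand, and no motif lies in a line without capitals.
CCNE1 (chr19:29811791-29811990, plus strand): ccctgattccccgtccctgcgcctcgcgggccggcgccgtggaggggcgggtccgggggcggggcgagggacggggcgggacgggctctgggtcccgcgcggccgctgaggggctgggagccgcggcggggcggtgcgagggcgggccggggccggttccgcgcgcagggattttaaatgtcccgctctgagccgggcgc
TYMS (chr18:657453-657652, plus strand): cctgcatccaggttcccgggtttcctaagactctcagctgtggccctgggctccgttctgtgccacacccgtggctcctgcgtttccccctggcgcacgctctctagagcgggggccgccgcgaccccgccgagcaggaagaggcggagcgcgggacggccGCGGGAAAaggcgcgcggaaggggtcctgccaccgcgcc
MCM7 (chr7:100101398-100101597, minus strand): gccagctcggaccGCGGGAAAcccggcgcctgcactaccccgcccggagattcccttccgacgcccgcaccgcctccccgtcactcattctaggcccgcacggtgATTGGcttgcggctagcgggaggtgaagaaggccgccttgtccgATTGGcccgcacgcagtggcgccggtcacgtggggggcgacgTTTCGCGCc
TK1 (chr17:78187205-78187404, minus strand): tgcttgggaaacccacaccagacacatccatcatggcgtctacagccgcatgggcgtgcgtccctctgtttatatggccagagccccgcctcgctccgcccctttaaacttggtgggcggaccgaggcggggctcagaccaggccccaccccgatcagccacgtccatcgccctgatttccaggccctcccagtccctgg
CCND3 (chr6:42048689-42048888, minus strand): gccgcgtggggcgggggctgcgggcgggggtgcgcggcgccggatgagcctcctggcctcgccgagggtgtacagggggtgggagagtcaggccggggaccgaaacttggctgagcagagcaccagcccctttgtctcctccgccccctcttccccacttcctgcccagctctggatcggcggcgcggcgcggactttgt
POLD1 (chr19:50384123-50384322, plus strand): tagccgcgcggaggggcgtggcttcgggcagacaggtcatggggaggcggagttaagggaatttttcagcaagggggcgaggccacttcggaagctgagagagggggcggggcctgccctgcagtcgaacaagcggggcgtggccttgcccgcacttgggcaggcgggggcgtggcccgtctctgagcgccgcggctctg
TYMS held 1 E2F motif and MCM7 held 2 with 2 CCAAT boxes in this stretch. The other 4 held neither, and MCM7, TK1, CCND3 and POLD1 have further listed starts that are not shown. A match of letters is a description of the window and shows no binding.

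Each gene is described first by its brightest probe, the one with the highest mean normalized signal, since probes of the same gene often disagreed and are set side by side afterwards. Of the 37 members, 35 were detected on at least 1 array and 32 on all 4, and GINS1 and CLSPN were below background throughout. Raw signals are given as deposited, always in the order A549 control, A549 knockdown, H1299 control, H1299 knockdown, and folds and log2 differences come from background-corrected, quantile-normalized values, so that a fold can differ from the ratio of raw signals. In A549, 5 of 35 members were at least 2-fold higher in the knockdown and 1 was at least 2-fold lower, 17.1% together, against 19.7% of 13228 detected genes (11% higher and 8.67% lower). In H1299, 2 of 35 were at least 2-fold higher and 7 at least 2-fold lower, 25.7% together, against 33.2% of 13207 genes (18.5% higher and 14.7% lower). Both shares are near or under the background, so they are no result about the members. Of the 7 lower in H1299, RRM2 was under 2-fold once its undetected side was held at background. The median log2 difference of the members was -0.09 in A549, with -0.13 over all detected genes, and -0.24 in H1299, with 0.28 over all detected genes. When arrays were centred on their medians in place of quantile normalization, the medians over all detected genes were 0.35 and 0.39 and those of the members 0.20 and 0.11. Relative to all genes in the main scaling, the members' median was thus 0.04 in A549 and -0.52 in H1299, and 28 of 35 members lay below the all-gene median in H1299. On the same measure the other replication and G1/S genes and the mitosis genes, described later, lay at -0.22 and -0.26 in H1299. On the deposited values the H1299 medians were -0.17 for the members and 0.10 over all detected genes. None of the members past 2-fold turned direction over 4 scalings (quantile, median centring, cyclic loess and the deposited values), whereas 12 of the 35 did in A549 and 11 in H1299, all of them smaller differences.

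**Figure D1:**
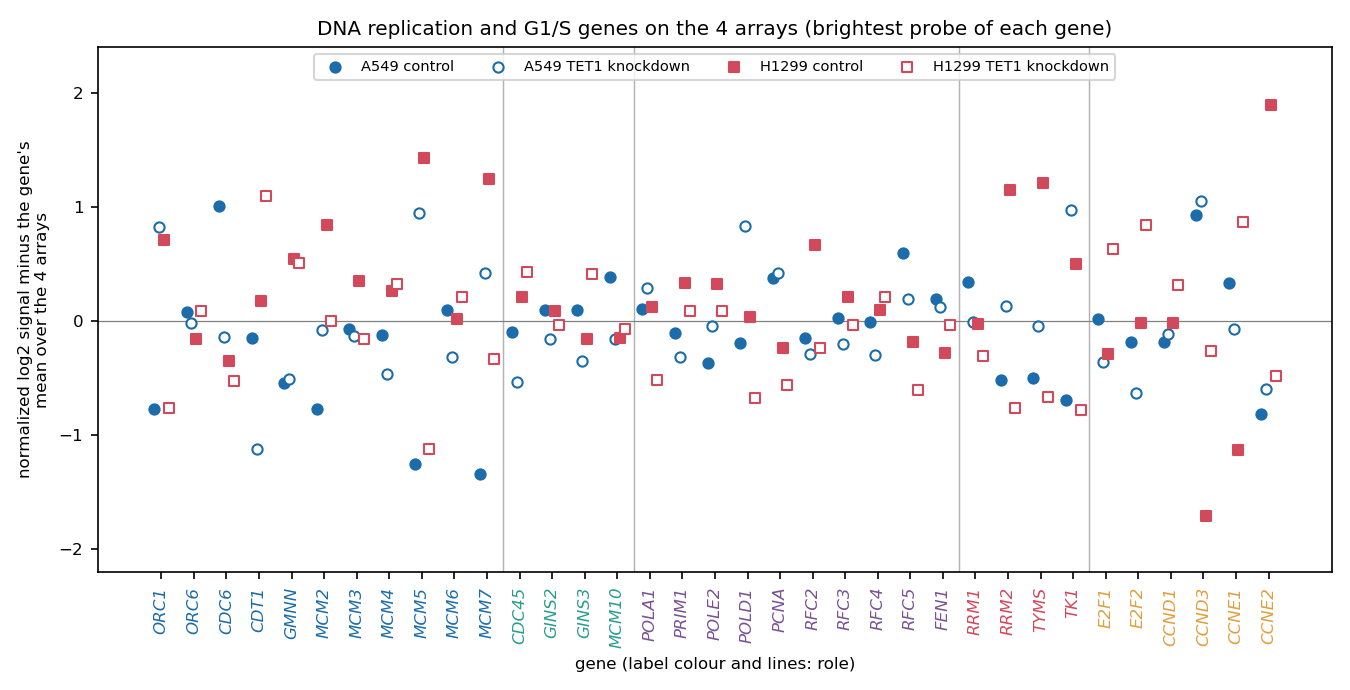
Normalized log2 signal of the brightest probe of each of 35 detected members on the 4 arrays, minus the mean of that gene over the arrays (vertical axis), with genes grouped by role along the horizontal axis. Filled symbols are controls and open symbols TET1 knockdowns, circles A549 and squares H1299. For MCM5, MCM7, ORC1 and TK1 the A549 knockdown and the H1299 control lie above the other 2 arrays, as they do for TYMS, POLD1, RRM2 and POLA1.

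Among the genes that load the helicase, ORC1, MCM5 and MCM7 were higher with knockdown in A549 and lower with knockdown in H1299. ORC1, the largest subunit of the origin recognition complex, had raw signals of 168.9, 358.8, 318.1 and 186.6 on the 4 arrays. Its lower arrays, the A549 control and the H1299 knockdown, were not above background, and it was at least 2.55-fold higher with knockdown in A549 and at least 2.54-fold lower with knockdown in H1299. On the deposited values its log2 differences were 0.29 and -0.26, and without background correction 0.72 and -0.66, all under 2-fold. MCM5, a subunit of the hexameric MCM helicase, read 269.5, 1267.2, 1479.7 and 349.5 on the same 4 arrays. The A549 control and H1299 knockdown were again its low arrays, which put it 4.61-fold higher with knockdown in A549 (log2 difference 2.21) and 5.88-fold lower with knockdown in H1299 (-2.56), or 1.36 and -1.70 on the log2 scale of the deposited values. MCM7, another subunit of the ring, read 1865.8, 7931.7, 12437.9 and 5121.5, far above background on every array. It was 3.40-fold higher with knockdown in A549 and 2.99-fold lower with knockdown in H1299, so the opposing pattern was not limited to dim probes. MCM2 read 761.4, 1652.0, 2532.7 and 1689.4 and had the same directions in smaller steps, 1.62-fold upward in A549 and 1.79-fold downward in H1299.

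The other loading factors did not share this pattern on their brightest probes. CDT1, which brings the MCM ring to origins, read 1564.3, 1188.8, 2275.1 and 5015.4 on the 4 arrays. It ran the opposite way, 1.96-fold lower with knockdown in A549 and 1.89-fold higher with knockdown in H1299. CDC6, the ATPase that loads the ring with CDT1, read 238.4, 222.3, 195.9 and 184.7, close to background, and was 2.22-fold lower with knockdown in A549. It was not above background in the H1299 knockdown and too near it for a fold, and its A549 difference was -1.15 with quantile normalization, -0.43 with median centring and -0.25 on the deposited values. GMNN, the inhibitor of CDT1, read 2241.7, 3074.9, 5378.7 and 6245.0, with log2 differences of 0.04 in A549 and -0.04 in H1299, so that its arrays differed by line and hardly by knockdown. ORC6, MCM3, MCM4 and MCM6 differed by -0.41 to -0.06 in A549 and by -0.51 to 0.24 in H1299 on their brightest probes.

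The 4 detected genes of helicase activation lay close together, with log2 differences from -0.54 to -0.25 in A549 and from -0.12 to 0.57 in H1299, none of them past 2-fold. CDC45 read 3235.8, 3178.9, 4516.1 and 6257.0 on the 4 arrays. The GINS subunit genes GINS2 (3896.2, 4237.6, 4415.6 and 4850.6) and GINS3 (1113.4, 1197.6, 1180.5 and 1869.0) and the scaffold gene MCM10 (2567.1, 2385.6, 2087.5 and 2602.2) likewise read within 2-fold of each other on all arrays.

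Among polymerases and clamp genes, POLD1 alone passed 2-fold in a line. POLD1, the catalytic subunit of polymerase delta, read 302.0, 771.7, 462.0 and 302.7 on the 4 arrays. It was 2.03-fold higher with knockdown in A549 and 1.63-fold lower with knockdown in H1299, low on the same arrays as MCM5, with a deposited A549 difference of 0.60, under 2-fold. RFC5, a subunit of the clamp loader, read 2431.4, 2500.5, 1731.3 and 1472.4 and was lower in both knockdowns, 1.32-fold in A549 and 1.33-fold in H1299. RRM1, the large subunit of ribonucleotide reductase, read 7952.0, 7725.5, 6781.1 and 6656.2 and was also lower in both, 1.27-fold and 1.21-fold. These were the only 2 of 35 members at least 1.2-fold lower in both lines (5.71%), against 2.21% of 11751 genes detected in both, and no member was at least 1.2-fold higher in both, against 3.63% (5.85% of genes either way). With median centring the RRM1 difference in H1299 was 0.11, so its shared direction rests on the scaling, while RFC5 kept its direction at -0.07 and -0.12. The polymerase alpha and epsilon genes POLA1, PRIM1 and POLE2, the clamp gene PCNA, the other clamp loader genes RFC2, RFC3 and RFC4 and the flap endonuclease gene FEN1 ranged from -0.29 to 0.32 in A549 and from -0.90 to 0.24 in H1299. PCNA, the sliding clamp, read 8724.7, 10657.7, 6189.8 and 5945.3, bright on all arrays and higher on both A549 arrays than on both H1299 arrays. POLA1, the catalytic subunit of polymerase alpha, read 760.9, 1216.2, 975.9 and 681.5 and had its lowest value with knockdown in H1299.

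Nucleotide supply genes had a median log2 difference of -1.58 in H1299 over 4 genes and of 0.56 in A549. With the undetected side of RRM2 held at background the H1299 median was -0.99 and the A549 median 0.23, and on the deposited values they were -0.70 and 0.25. TYMS and TK1 were at least 2-fold lower in H1299, as were 14.7% of all genes, and RRM2 was so only on its undetected value. TYMS, the thymidylate synthase gene, read 1908.4, 3433.7, 7076.6 and 2356.6 on the 4 arrays. Its H1299 control stood above the other 3 arrays, and TYMS was 3.66-fold lower with knockdown in H1299 and 1.38-fold higher with knockdown in A549. TK1, the cytosolic thymidine kinase gene, read 854.9, 3393.1, 2181.0 and 1069.1 and was 3.17-fold higher with knockdown in A549 and 2.43-fold lower with knockdown in H1299, low again on the arrays of the A549 control and the H1299 knockdown. RRM2, the regulated small subunit of ribonucleotide reductase, read 146.2, 189.0, 248.9 and 144.6, was above background only in the A549 knockdown and H1299 control, and was at least 1.62-fold lower with knockdown in H1299.

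Among the G1/S regulators, CCNE1 and CCND3 were higher with knockdown in H1299 and CCNE2 was lower. CCNE1, the cyclin E1 gene, read 814.9, 929.8, 486.8 and 1540.3 on the 4 arrays, and was 3.99-fold higher with knockdown in H1299 and 1.32-fold lower with knockdown in A549. CCND3, the cyclin D3 gene, read 10335.6, 13628.8, 1913.3 and 5944.6 and was 2.73-fold higher with knockdown in H1299, with its H1299 control the lowest of the arrays by far. CCNE2, the cyclin E2 gene, read 262.4, 430.0, 1428.1 and 373.3, stood out in the H1299 control, and was 5.18-fold lower with knockdown in H1299 and 1.17-fold higher with knockdown in A549. On their brightest probes the cyclin E genes thus differed in opposite directions within H1299, on the deposited values by 1.39 and -1.60 log2 units. Another CCNE1 probe, described later, differed by -0.45 there on the deposited values, in the direction of CCNE2. E2F1 and E2F2, activating E2F factors, were 1.89-fold and 1.81-fold higher with knockdown in H1299. In A549 they were 1.3-fold and 1.36-fold lower with knockdown. E2F1 was near background (203.8, 241.5, 232.8 and 292.3) and E2F2 well above it (1119.5, 1210.3, 1528.5 and 3076.5). With median centring the A549 log2 differences of E2F1, E2F2 and CCNE1 turned to 0.36, 0.01 and 0.10, so these directions rest on the scaling. The H1299 difference of E2F1 was 0.24 on the deposited values. CCND1, the cyclin D1 gene, read 9077.6, 11232.1, 10966.8 and 15983.2, with log2 differences of 0.07 and 0.34.

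Differences in the lines opposed each other among the members as they did over the whole array. Of the 35 detected members, 13 were higher with knockdown in A549 and lower with knockdown in H1299 by any amount (37.1%, against 29.3% of 11751 genes), 12 ran the other way (34.3%, against 49.8%), 8 were lower in both and 2 higher in both. At least 2-fold each way, 4 members, ORC1, MCM5, MCM7 and TK1, were higher in A549 and lower in H1299 (11.4%, against 8.3% of genes), and none ran the other way to that extent, against 4.58%. On the deposited values 3 members were so opposed, without ORC1, and with median centring 3, without TK1, whose H1299 difference was then -0.99. Over 36 member probes detected on all arrays, the A549 and H1299 differences correlated at r = -0.784 (Spearman's rho = -0.757), against r = -0.75 and rho = -0.692 over all 11894 such probes. These comparisons share no array, and the values are across probes, several of them of the same gene.

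**Figure D2:**
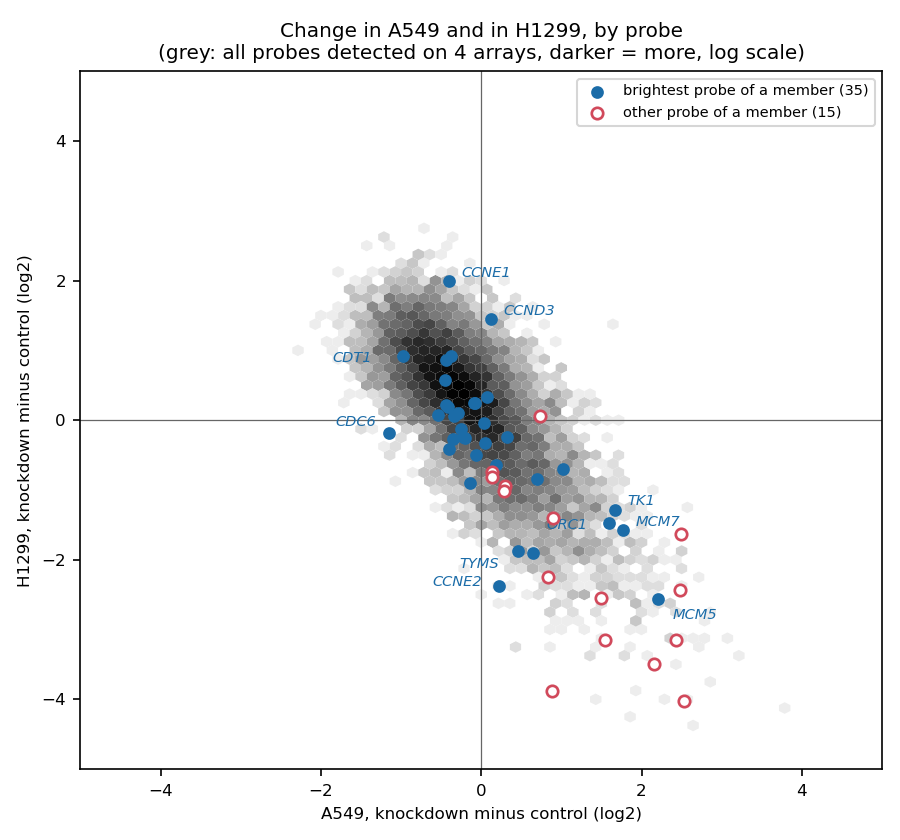
Log2 difference of knockdown minus control in A549 (horizontal axis) and in H1299 (vertical axis) by probe. Grey shading counts all 11894 probes detected on all arrays, apart from 20 beyond the axes, filled circles are the brightest probes of 35 members and open circles 15 other detected probes of members. MCM5, MCM7, ORC1 and TK1 lie to the lower right, as do most open circles, 11 of which were not detected on all arrays.

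Other probes of the same genes could give another picture than the brightest. Of the members, 13 had at least 2 detected probes, with 15 probes besides the brightest. Only 4 of these 15 were detected on all arrays, and 7 were detected on the A549 knockdown or H1299 control alone, so that detection itself put those high on these arrays and no count is drawn from the 15. The 4 detected on all arrays, of MCM3, MCM10, PRIM1 and RFC4, were all higher with knockdown in A549 and lower with knockdown in H1299, against 41.5% of 1891 such probes of all genes. Of the 32 brightest probes detected on all arrays 11 were (34.4%), against 24.2% of 9687. The median log2 differences of the 4 probes were 0.56 in A549 and -1.63 in H1299, against 0.05 and -0.05 over the 1891.

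MCM3, a helicase subunit, had the probe with the lowest H1299 difference of all member probes. Its brightest probe ILMN_2224143 read 6643.8, 7877.5, 9703.3 and 8034.1 on the 4 arrays, within 1.42-fold in either line. Its probe ILMN_1806818 read 288.3, 1691.3, 2885.0 and 296.0, which is 5.76-fold higher with knockdown in A549 and 16.3-fold lower with knockdown in H1299. For FEN1, the flap endonuclease gene, ILMN_2160929 read 3521.1, 4322.3, 2922.1 and 4114.2 and ILMN_1755834 read 172.4, 580.9, 708.5 and 223.9. The second was at least 5.16-fold higher with knockdown in A549 and 5.38-fold lower with knockdown in H1299 while the first stayed within 1.18-fold. For ORC6, the smallest subunit of the origin complex, ILMN_2215061 read 27612.7, 27300.5, 22320.4 and 31340.5 and ILMN_1731070 read 230.8, 693.3, 647.8 and 183.3, the latter 2.93-fold higher with knockdown in A549 and at least 7.60-fold lower with knockdown in H1299.

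Probes of MCM4, MCM10 and clamp loader genes likewise differed from the brightest. Of those below, the other probes of MCM4 and RFC2 were detected on the A549 knockdown and H1299 control alone, so detection itself put them high there. The other RFC3 probe was undetected in the A549 control, and those of MCM10 and RFC4 were detected on all arrays. MCM4 probe ILMN_2412860 read 145.4, 201.1, 603.7 and 150.8 and was at least 6.90-fold lower with knockdown in H1299, where the brightest MCM4 probe, ILMN_1737205 at 1761.3, 1928.2, 2633.5 and 3294.5, differed by 0.06. MCM10 probe ILMN_2413899 read 264.6, 585.3, 589.6 and 212.9 and was 1.79-fold higher with knockdown in A549 and 4.77-fold lower with knockdown in H1299. The brightest MCM10 probe differed by 0.08 in H1299. RFC2 probe ILMN_1655733 (138.6, 299.1, 512.9 and 152.9) and RFC3 probe ILMN_1658143 (151.3, 386.6, 742.4 and 192.3) were at least 5.40-fold and 8.91-fold lower with knockdown in H1299, while the brightest probes of these genes were 1.87-fold and 1.18-fold lower. The brightest RFC3 probe read 598.8, 796.5, 864.0 and 768.2. RFC4 probe ILMN_2370365 read 1381.3, 2259.8, 2908.9 and 1743.1, bright on all arrays, and differed by 0.28 and -1.01, against -0.29 and 0.11 for the brightest RFC4 probe at 3249.0, 3481.0, 3998.8 and 5173.1.

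CCNE1 turned direction with the probe in both lines. Its brightest probe, ILMN_2374425, was 3.99-fold higher in H1299 and 1.32-fold lower in A549, whereas ILMN_1795852, at 162.6, 481.2, 418.7 and 206.6, was at least 3.93-fold higher with knockdown in A549 and 3.09-fold lower with knockdown in H1299. Another CCNE1 probe, ILMN_2384785, read 135.6, 228.2, 311.7 and 141.8 and was at least 2.45-fold lower with knockdown in H1299. ILMN_2384785 was detected on the A549 knockdown and H1299 control alone, so detection itself put it high there. The brightest probe was the only CCNE1 probe detected on all arrays, and ILMN_1795852 was detected on both H1299 arrays. The higher CCNE1 signal in the H1299 knockdown therefore rests on the brightest probe. The primase gene PRIM1 read 1680.6, 1989.0, 2595.5 and 2638.9 on its brightest probe and 817.3, 1275.9, 1834.6 and 1204.9 on the other. These probes were 0.34 log2 units apart in A549 and 0.56 apart in H1299. The other detected probe of POLA1 was detected on the A549 knockdown and H1299 control alone, and those of PCNA and MCM7 on the H1299 control alone. Detection itself put these probes high there, so no agreement in direction is drawn from them. In 4 members with several probes detected on all arrays (MCM3, MCM10, PRIM1 and RFC4), all 4 had probes of opposite sign in A549 and 2 did in H1299. Over 1680 such genes of the whole array, 39% and 42.5% did. Probes of MCM3 and MCM10 were at least 2-fold apart in A549, and with RFC4 in H1299, against 22.3% and 42.7% of the 1680.

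**Figure D3:**
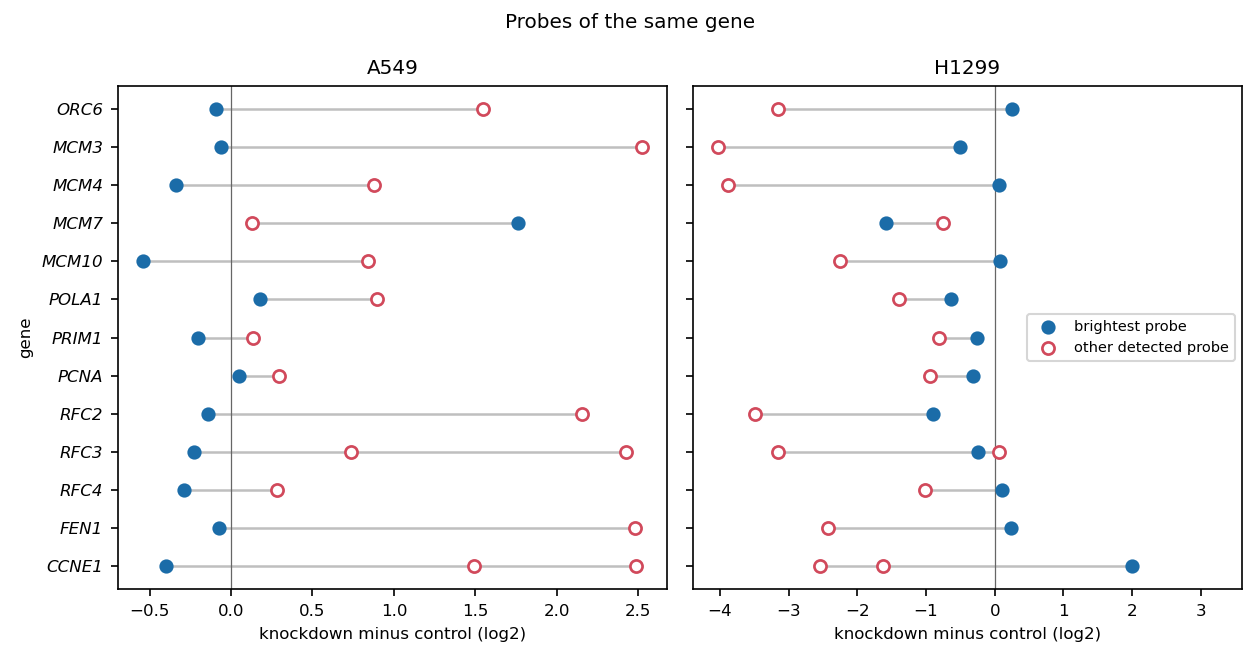
Log2 difference of knockdown minus control for each detected probe of the 13 members with more than 1 detected probe (vertical axis: gene), in A549 and H1299 (horizontal axes). Filled circles are the brightest probe and open circles the others. Except for MCM7, the open circles lie to the right of the filled ones in A549, and, except for MCM7 and a probe of RFC3, to the left in H1299, where detection on all arrays held for the open circles of MCM3, MCM10, PRIM1 and RFC4 alone.

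In the raw signals, before any normalization, the 4 other probes detected on all arrays read lower on both the A549 control and the H1299 knockdown array than on either of the other arrays. So did 9 of the 32 brightest probes detected on all arrays (28.1%) and 25.1% of 11894 probes of the whole table. The reverse order was seen for 0 of the 4, 2 of the 32 and 12.1% of the 11894. The A549 control and H1299 knockdown arrays also had fewer detected probes, and the part of that in the pattern was not tested.

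Taking both lines together, no member passed the test of knockdown against control. limma, fitted with the line as a block to the 12965 genes that at least 2 arrays detected, called 1 gene, which is no member (0.00771% of genes at a Benjamini-Hochberg adjusted p under 0.05), and 0 of 35 members. At an unadjusted p under 0.05 there were 23 genes and 0 members. CCND3 had the lowest unadjusted p of the members, 0.131, with a mean log2 difference of 0.78 ± 0.52 (SE, limma adjusted p = 0.999961). The largest other mean differences were -1.08 ± 1.02 for CCNE2, 0.80 ± 0.86 for CCNE1, and -0.71 ± 0.60 for TYMS (SE, 2 lines with 1 array per group). The SE of the members ran from 0.38 to 1.05 log2 units, while the median size of their mean differences was 0.19. With infinite prior degrees of freedom, the SE of each gene was the disagreement of the lines pooled over genes of like intensity. A gene's own disagreement had no weight, and GMNN, with log2 differences of 0.04 and -0.04, had an SE of 0.58. Failing this test therefore does not show that the knockdown left a gene alone.

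Between the lines, 1 of 35 members differed. CCND3 was lower in H1299 by 1.97 log2 units (H1299 minus A549 -1.97 ± 0.52, SE, limma adjusted p = 0.0055), at 11.58 against 13.55 normalized log2 units, against 5.02% of 12965 genes called (1.7% higher and 3.32% lower in H1299). Its difference was -2.64 between the controls and -1.31 between the knockdowns, lower in H1299 on both. With median centring, or without the intensity trend in the variance, 0 members were called, and 1 was in each of the other settings that kept the knockdown in the fit. CDT1 (1.27 ± 0.67, adjusted p = 0.458), GMNN (1.05 ± 0.58, adjusted p = 0.515) and CCNE2 (1.42 ± 1.02, adjusted p = 0.83) were the members with the largest positive differences and did not pass in limma. GMNN differed by 1.09 between the controls and 1.01 between the knockdowns. It differed by 1.05 both between the H1299 control and the A549 knockdown and between the H1299 knockdown and the A549 control. Its SE of 0.58 is pooled over genes of like intensity and does not measure the small spread of these values. CCNE2 differed by 2.71 between the controls and 0.12 between the knockdowns, so its difference rests on the H1299 control array. Over the 35 members the median of H1299 minus A549 was 0.26, with 22 higher in H1299, and 0.04 over all genes. Left to the A549 knockdown and H1299 control arrays, that median was 0.33, and on the other pair of arrays 0.01.

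**Figure D4:**
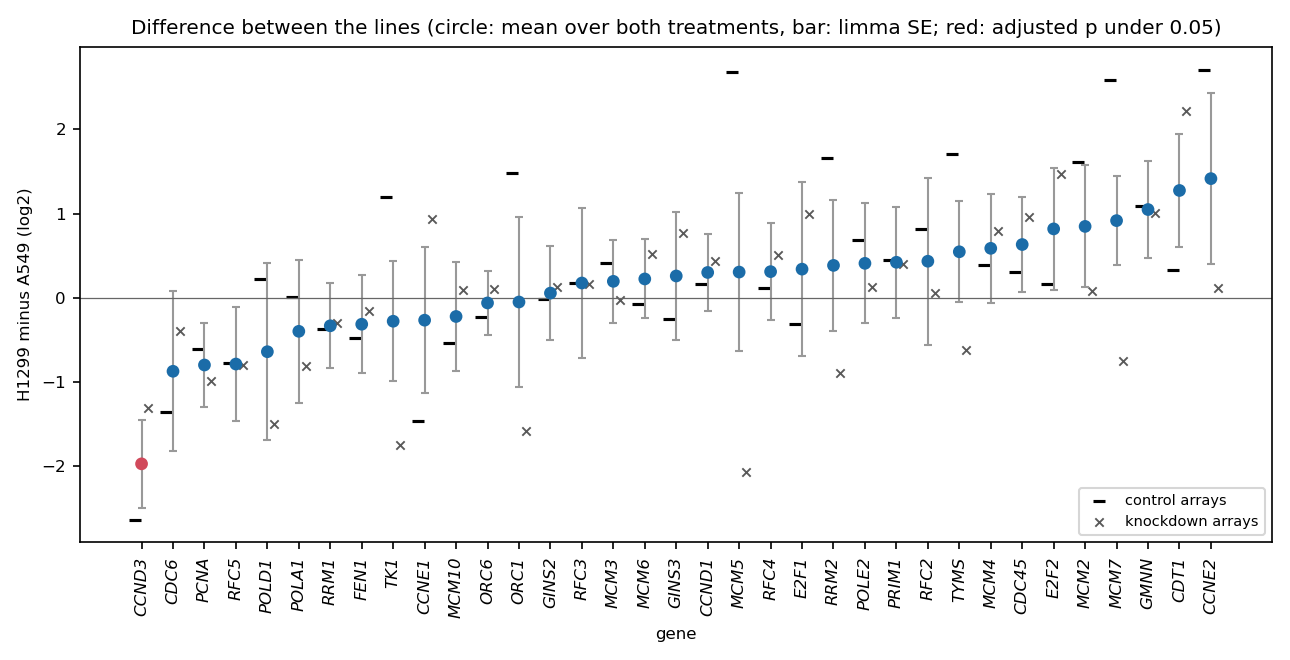
H1299 minus A549 on the normalized log2 scale (vertical axis) for 35 members in rising order (horizontal axis). Circles are the means over controls and knockdowns with limma's SE as bars, dashes the 2 control arrays and crosses the 2 knockdown arrays. CCND3 (red) passed the test. The dashes and crosses lie on opposite sides of 0 for MCM5, MCM7, TK1 and ORC1, and for others such as TYMS, CCNE1, RRM2 and POLD1.

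Further genes of the same pathway, taken as a list of 54, gave 51 detected in A549 and 53 in H1299. In A549, 3 were at least 2-fold higher and 1 lower, and in H1299 2 were higher and 11 lower, against the 11%, 8.67%, 18.5% and 14.7% of all genes. LIG1, the ligase that joins Okazaki fragments, read 203.6, 1044.4, 550.2 and 191.8, near background on the A549 control and the H1299 knockdown. Its log2 differences on the deposited values were 1.34 and -0.81, the latter under 2-fold. In the main scaling it was 6.78-fold higher with knockdown in A549 and 5.92-fold lower with knockdown in H1299. RECQL4, a helicase gene, was at least 2.61-fold higher and at least 2.46-fold lower, and RB1, the retinoblastoma gene, at least 1.28-fold higher and at least 3.61-fold lower, both near background on the low arrays. In H1299, E2F5 was 11.8-fold lower and UHRF1, which reads hemimethylated DNA behind the fork, 5.13-fold lower, with A549 differences of 0.67 and 0.21. TFDP2, a partner of E2F, was 2.36-fold higher with knockdown in H1299, and MCMBP, an MCM-binding protein gene, was 2.15-fold lower with knockdown in A549. None of 52 tested was called over the lines in limma, and of the list CCND2 alone was called between the lines (limma adjusted p = 0.0075), detected on both H1299 arrays and on neither A549 array.

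Mitosis genes, which are transcribed later in the cycle, held 4 of 29 at least 2-fold higher in A549 and 5 of 29 at least 2-fold lower in H1299, with none past 2-fold the other way. These shares, 13.8% and 17.2%, were near the 11% and 14.7% of all genes, and MKI67 counts in both although its folds with the undetected side held at background are at least 1.03 and at least 1.67. AURKB, a kinase of chromosome segregation, was 9.41-fold higher with knockdown in A549 and 8.18-fold lower with knockdown in H1299, and TPX2, a spindle assembly factor, 2.52-fold higher and 3.88-fold lower. FOXM1, a transcription factor of G2 and M genes, was 2.06-fold higher and 1.69-fold lower, and MAD2L1, a spindle checkpoint gene, was 9.44-fold lower in H1299. The list medians were 0.09 in A549 and 0.03 in H1299, against -0.09 and -0.24 for the replication members and -0.13 and 0.28 over all detected genes. With median centring the H1299 medians were 0.39 for the mitosis genes, 0.11 for the members and 0.39 over all detected genes.

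Cyclin-dependent kinase inhibitors, which hold back the cyclin D and E kinases, were higher with knockdown in H1299 in each of 6 detected genes, with a median of 0.88, where 61.5% of all genes were higher with a median of 0.28. In A549, 1 of 4 detected inhibitors was higher, with a median of -0.31, against 42.3% of all genes and a median of -0.13. CDKN1A, the p21 gene, read 4790.5, 4443.4, 788.3 and 4103.6 on the 4 arrays, and was 5.46-fold higher with knockdown in H1299 and 1.39-fold lower with knockdown in A549. CDKN2D, the p19 inhibitor gene of CDK4 and CDK6, was 3.06-fold higher and CDKN2B, the p15 gene, 2.04-fold higher with knockdown in H1299. Probes disagreed here too, CDKN1B probe ILMN_1722811 being 4.14-fold lower with knockdown in H1299 where its brightest probe was 1.67-fold higher. Likewise CDKN2A probe ILMN_1744295 was at least 5.20-fold and CDKN2B probe ILMN_1723198 at least 2.08-fold lower, where the brightest probes were 1.53-fold and 2.04-fold higher. None of the 6 was called for the knockdown over the lines in limma. CDKN2A (limma adjusted p = 0.002) and CDKN2B (limma adjusted p = 0.0234) were called higher in H1299, and neither was above background on an A549 array.

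**Figure D5:**
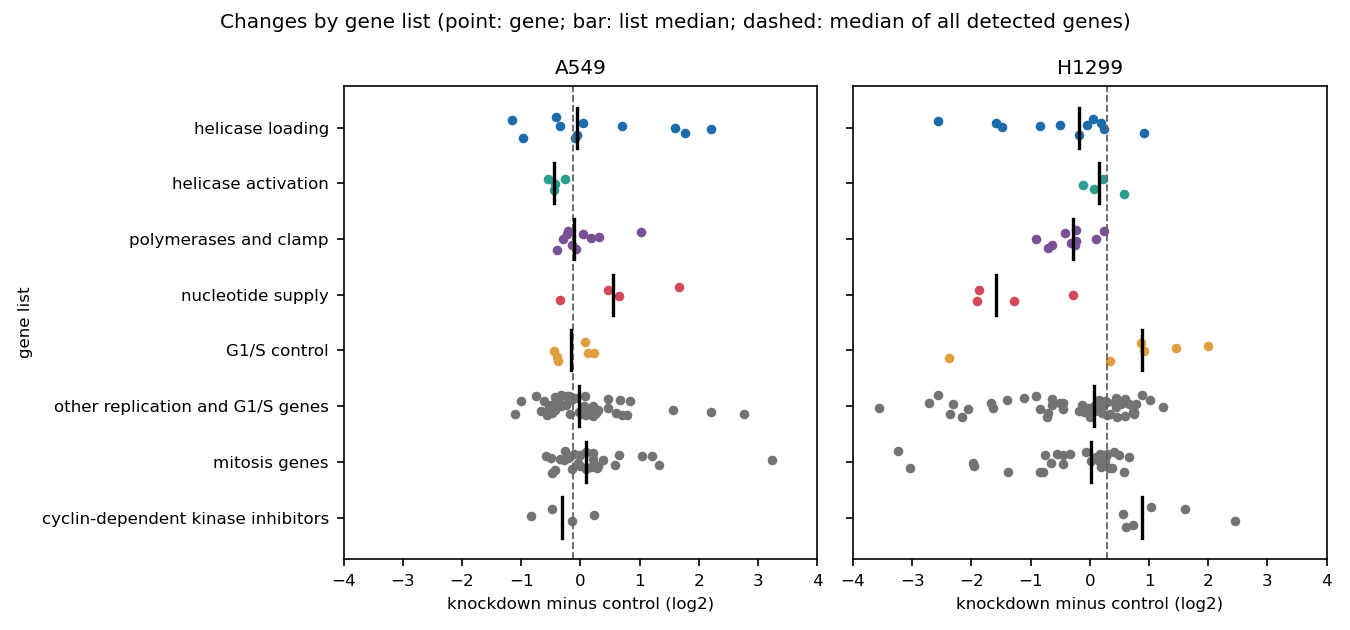
Log2 difference of knockdown minus control (horizontal axes) of the brightest probe of each detected gene by list (vertical axis), in A549 and H1299. Points are genes, black bars list medians, and the dashed line is the median of all detected genes (-0.13 in A549 and 0.28 in H1299). In H1299 the nucleotide supply median lies at -1.58 and that of the G1/S regulators at 0.89.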

How the data were processed

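The deposited non-normalized table holds, per the file headers, bead signal intensity and a detection p-value for each probe and array. The other deposited table is on a log2 scale and gives values which the submitters' processing notes tie to lumi, made by the authors with a version and settings not given here. The labels name total RNA as the molecule, although their extraction text describes genomic DNA. Titles gave 4 groups of 1 array.

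Background was removed from the intensity with limma 3.58.1 in R 4.3.3 (normexp, using negative controls estimated from detection p-values), 16 was added, and log2 values were quantile normalized. Probes with a p-value under 0.01 counted as detected, and the brightest probe stood for a gene. RefSeq updated the symbols. Genes detected on at least 1 of a line's 2 arrays were counted at 2-fold. An undetected side was held at the lowest detected value of its array, or its own if higher, and the fold written as at least that size. Across lines, limma with a trend in intensity (1 residual degree of freedom, infinite prior degrees of freedom) fitted line and knockdown, two-sided, with Benjamini-Hochberg adjustment at 0.05.

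On simulated data for knockdown over both lines, 12965 genes had independent noise of the same spread, the median residual spread of these arrays. Of genes shifted by 1 log2 unit 1% were recovered, and of those shifted by 4, 100%. With a smaller simulated spread 100% of both were recovered. In the data the SE varied with intensity, so the share recovered there can differ. No label tells if the arrays are of separate cultures, so p-values measure only the spread between these samples, and the number of arrays and the disagreement between lines limit the precision. Members and lists were chosen with earlier results of these data known. The genes named were all members, TET1, markers, and up to 4 genes each way per line past 2-fold of the other 3 lists. CDKN1B, and CCND2 and CDKN2A as the genes behind a count, were named after their values were seen. One gene that this rule names is not reported here. Alternatives covered normalization, background, offset, detection, probe choice, fold and model. Figures used matplotlib 3.10.9.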

Additional observations from a re-analysis of the deposited data

Results flagged for a closer look

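For 4 members the knockdown difference exceeded 2-fold in both lines in opposite directions. The difference in A549 minus that in H1299 was 3.07 log2 units for ORC1, 4.76 for MCM5, 3.34 for MCM7 and 2.95 for TK1. On the deposited values ORC1 differed by 0.29 and -0.26 in the lines, under 2-fold. With 1 array per group these differences between the lines were not tested. In each of these genes the A549 control and the H1299 knockdown were the low arrays, which are also the arrays with fewer detected probes (13980 and 14417, against 17107 and 16883).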

How the results depend on the processing

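Counts of members past 2-fold varied most with which probe stood for a gene, but detection partly fixed the direction under these probe choices. The mean and the least bright settings took in probes, such as those of MCM4 and RFC2, detected on the A549 knockdown and H1299 control alone. Detection itself put such probes high on these arrays, so no conclusion is drawn from these settings. In A549 the count of 6 was 11 with the mean of detected probes and 12 with the least bright detected probe, and 3 on the deposited values and without background correction. In H1299 the count of 9 was 16 and 18 with those probe choices, and 16 at 1.5-fold. The members' median in A549, -0.09, reversed to 0.22 and 0.32 with those probe choices and to 0.20 with median centring. In H1299 the median of -0.24 was -0.70 and -0.84 with those probe choices, and 0.11 with median centring. The median mean difference over the lines, -0.11, was 0.25 with median centring. The median of H1299 minus A549, 0.26, was 0.12 on the deposited values, and 0.015 on the arrays of the A549 control and the H1299 knockdown alone, an alternative chosen after seeing the data. Genes called for the knockdown went from 1 to 0 with only genes detected on all arrays and with no line block (limma, 13 and 7 genes at an unadjusted p under 0.05). The 651 genes called between the lines were 336 with median centring, 307 on the deposited values, 167 with detection on all arrays and 390 with the least bright probe. No array was left out singly, since each group has 1 and a fit of line and knockdown on 3 arrays has no residual degrees of freedom. No paired analysis was possible beyond the block for the cell line, because the labels give no replicate numbers. Probes near background, such as those of CDC6, E2F1, RRM2 and ORC1, limit what can be said of these genes.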
